A study of Mus musculus with 4 samples.

Results

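Complement genes were followed in embryonic mouse lung with 4 Affymetrix arrays of whole-lung RNA, 2 of wild type and 2 of Sftpc-Nmyc transgenic embryos. The set was fixed by name as 9 genes, C1qa, C1qb, C1qc, C2, C3, Hc, Cfb, Cfd and Serping1, and every probe set whose annotation gave exactly one of these symbols was taken. That found 9 probe sets for 7 genes, out of 22690 probe sets and 12393 genes with a single symbol. C3 and Cfd matched no annotated probe set and were not analysed here. The transgene encodes a fusion of EGFP with mouse Nmyc1, now called Mycn, a MYC family transcription factor that drives cell growth. Its expression is driven by a 3.7 kb promoter and enhancer from human SFTPC, a gene of the distal lung epithelium. The titles place all 4 lungs at embryonic day 18. The design text gives day 18.5 for the transgenic embryos, which were made by injecting fertilized F2 eggs of C57BL/6J and DBA/2J ancestry, and gives neither an exact age nor a background for the wild type. Embryos made by injection are founders, so each can carry its own transgene insertion. Per that text, the arrays of a group are biological replicates.

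Complement is a cascade of plasma and tissue proteins that marks microbes and cell debris for removal. In the classical pathway, C1q, built from the chains A, B and C, binds antibody or debris, and its partner proteases cut C4 and C2 into an enzyme that splits C3. The alternative pathway uses factor B and factor D for the same step, and C5, the product of Hc, then starts the terminal membrane attack complex. The liver makes most plasma components, macrophages make C1q, and lung epithelium is known to make several components locally.

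Over all genes, the 4 arrays had median signals from 65.45 to 70.8, and limma called 2636 of 8675 tested genes at an adjusted p under 0.05 (30.4%), with 15.7% lower and 14.7% higher in the transgenic lungs. The both-above pattern, in which both wild-type arrays lie above both transgenic arrays, held for 34.8% of tested genes and 33.2% of tested probe sets. The median log2 fold change over all tested genes was -0.02. Lung identity was present on all arrays, with Sftpc signals of 9566.4 and 9545.8 in wild type and 5788.1 and 4817.4 in the transgenic lungs. Of 3 Mycn probe sets, 1425922_a_at rose from 34.7 and 32.1 to 455.2 and 356. Another, 1417155_at, went from 78.7 and 63.5 to 25.1 and 27.2. The last, 1425923_at, read 57.3 and 18.8 against 61.8 and 43.8 and did not pass. Xist, the RNA of the inactive X chromosome, read 1707.8 and 1506.1 in wild type and 59.3 and 63.9 in the transgenic lungs, so an apparent difference in sex and the transgene cannot be told apart in any result here. In whole lung, fewer cells of a type and less RNA per cell cannot be told apart either. Detection calls were not used here, so the highest signal of 27 Bacillus control probe sets, 73.4, serves as a guide to background.

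Both Sftpc-Nmyc arrays read below both wild-type arrays for C1qa, C1qb, C1qc, C2, Hc and Serping1, but not for Cfb. This both-above pattern also held for 34.8% of all tested genes. Hc showed by far the largest change of the set, a log2 fold change of -4.76 ± 0.46 (limma SE, n = 2 per group). The C1q chains stood at -1.71 to -1.05 on the log2 scale, and Serping1, which encodes the C1 inhibitor, fell by 0.91. Of the 7 genes with a probe set, 5 passed the filter on dim genes, and 5 of those 5 were called lower and 0 higher, where 15.7% of all tested genes were called lower. Hc passed the filter only through its wild-type signals and so had to differ once tested, and the count is a description of the set, not support for a direction. C2 was lower too, but lay just under the filter, and Cfb was at background in both groups. All fold changes are on a log2(signal + 5) scale, which understates the changes of dim genes.

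**Figure D1:**
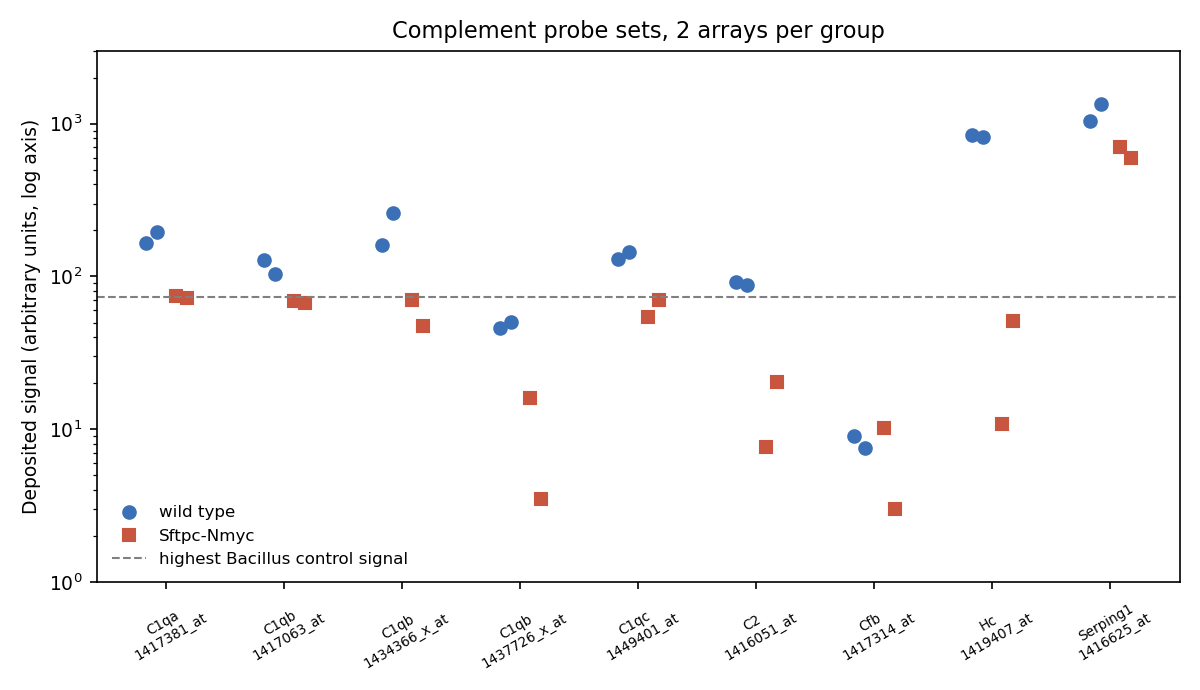
Deposited signal in arbitrary units (log axis) for the 9 complement probe sets, with the 2 wild-type arrays as circles, the 2 Sftpc-Nmyc arrays as squares and the highest Bacillus control signal of 73.4 as a dashed line. Both transgenic points lie below both wild-type points for every probe set except that of Cfb. This both-above pattern held for 33.2% of all tested probe sets.

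C1q is a single protein of 3 kinds of chain, and its genes are direct neighbours on mouse chromosome 4, with C1qb, C1qc and C1qa following each other without another protein-coding gene between them (RefSeq, GRCm38.p6). Promoter windows of 300 bases, from 250 bases before to 50 after the annotated start, were held for 3 of the 7 genes. Those of C1qb and C1qc, on the minus strand at chr4:136886151-136886450 and chr4:136892865-136893164 of GRCm38.p6, are shown because these neighbours were lower together. That of Hc, on the minus strand at chr2:35061363-35061662, is shown because Hc changed most. Capitals mark every match to the 6 motifs named after the sequences.
C1qb: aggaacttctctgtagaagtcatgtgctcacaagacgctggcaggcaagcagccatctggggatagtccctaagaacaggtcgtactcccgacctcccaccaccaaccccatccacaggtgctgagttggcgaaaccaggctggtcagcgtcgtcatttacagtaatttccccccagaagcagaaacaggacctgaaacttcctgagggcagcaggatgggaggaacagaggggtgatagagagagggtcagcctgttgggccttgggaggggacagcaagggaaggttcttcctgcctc
C1qc: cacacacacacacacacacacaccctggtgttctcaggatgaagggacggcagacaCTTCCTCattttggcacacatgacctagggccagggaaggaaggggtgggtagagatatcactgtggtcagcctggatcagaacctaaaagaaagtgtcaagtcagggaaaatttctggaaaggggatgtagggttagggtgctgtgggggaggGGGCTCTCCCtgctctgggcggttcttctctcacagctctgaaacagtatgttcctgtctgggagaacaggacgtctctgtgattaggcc
Hc: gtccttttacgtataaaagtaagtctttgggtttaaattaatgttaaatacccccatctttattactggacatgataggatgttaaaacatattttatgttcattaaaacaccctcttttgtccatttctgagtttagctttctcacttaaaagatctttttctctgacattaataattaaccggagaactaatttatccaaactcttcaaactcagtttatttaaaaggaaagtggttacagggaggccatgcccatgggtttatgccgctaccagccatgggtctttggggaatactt
The motifs searched on both strands were GAGGAAG for the macrophage factor PU.1, CGGAAG for ETS factors, the interferon response element (GAAA, any 2 bases, GAAA), TTGCNNAA for C/EBP, the NF-kB motif (GGG, any 3 bases, T, any base, CC) and CACGTG, the E-box that MYC proteins bind. C1qc held 1 PU.1-type match, at position -194 on the opposite strand, and 1 NF-kB match at position -40. These motifs occur in 13.6% and 17.4% of 32851 RefSeq promoter windows of this length, so either match is common. C1qb and Hc held no match to any of the 6, and CACGTG, present in 7.15% of windows, was found in none of the 3 windows. A match to these letters is a description of the window and does not show binding.

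C1qa, which encodes the A chain, read 166.1 and 195.8 on the wild-type arrays and 74 and 71.8 on the transgenic arrays. The groups did not overlap, and the transgenic signals sat at the level of the brightest control. The fall was 1.22 ± 0.18 (log2, limma SE, n = 2 per group), or 2.33-fold, with a 95% interval from -1.64 to -0.80 and a limma adjusted p of 0.0025.

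C1qc, for the C chain, read 130.3 and 143.8 in wild type and 54.3 and 70.1 in the transgenic lungs. Here too the groups were apart, with both transgenic values under the control guide. C1qc fell by 1.05 ± 0.20 (limma adjusted p = 0.0067). Leaving out wild-type replicate 2 ended this call, at -0.97 with a limma adjusted p of 0.052, and adjusted p over all 12 alternatives ran from 0.0058 to 0.052.

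C1qb, for the B chain, was read by 3 probe sets. The brightest, 1434366_x_at, read 161 and 261.5 in wild type against 69.7 and 47.6, which is -1.71 ± 0.28 on the log2 scale (limma adjusted p = 0.0037). Probe set 1417063_at read 128 and 103.3 against 69.6 and 66.7 and changed less, by -0.68 ± 0.20 (limma adjusted p = 0.042 over 14266 probe sets, of which 12.9% were called lower). The dimmest, 1437726_x_at, read 46.2 and 50.5 against 16 and 3.5, all below the control guide, and was left out of the test as too dim. Both transgenic signals lay below both wild-type signals for all 3 probe sets, as for 33.2% of all tested probe sets. The size of the fall depended on the probe set. The suffix x in a probe set name marks probes that may also bind other transcripts. Averaged over its 3 probe sets, C1qb stood at -1.42 (limma adjusted p = 0.0078). The 95% intervals of C1qa, C1qb (-2.35 to -1.06) and C1qc (-1.51 to -0.59) overlapped, and whether the chains differ in the size of their fall was not tested.

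C1q is a macrophage product, and macrophage markers were lower beside it. Of 26 macrophage and monocyte markers 25 were measured and 18 tested. Of these, 8 were called lower and 0 higher, beside 15.7% lower over all tested genes. The macrophage markers had a median log2 fold change of -0.67 and a range from -2.91 to -0.09. Their summed signal was 8030.5 and 10270.9 in wild type and 3546.1 and 2645 in the transgenic lungs, with no marker at 0 and 7 of 25 at or below the control guide on all arrays. Among the brightest, Lyz2, lysozyme, which lung epithelium also makes, stood at -2.91 and Apoe, an apolipoprotein, at -1.55, both called. Csf1r, the macrophage growth factor receptor, fell by 1.32 ± 0.14 (limma adjusted p = 0.00073), and Ctss, a lysosomal protease, was called at -0.96. Adgre1 (F4/80) and Cd68 did not pass, at -0.37 ± 0.18 and -0.19 ± 0.24. Lower calls were not particular to macrophage markers. Of 6 neutrophil markers tested 4 were called lower and 0 higher (median -0.88), and of 2 erythroid markers tested 2 were called lower (median -2.23).

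Set against Csf1r within each array, the mean of the C1q chains was -2.18 and -1.71 in wild type and -1.85 and -2.05 in the transgenic lungs on the log2 scale, so the groups overlapped and their means differed by -0.01. That was the brightest of 3 Csf1r probe sets. Against the others, which fell less (-1.01 and -0.79), the group means of the C1q difference lay -0.31 and -0.53 apart. The groups did not overlap, but for the first of these probe sets they almost touched. Its lower wild-type value was -0.310 and its higher transgenic value -0.319. Against the median macrophage marker level within each array the C1q mean was 0.19 and 0.68 in wild type. It was -0.48 and -0.36 in the transgenic lungs, and these groups did not overlap. That median level need not be the same marker on each array. It fell by 0.47, where the median marker fold change was -0.67 and the C1q mean changed by -1.32. All these C1q means used the brightest C1qb probe set, at -1.71. Probe set 1417063_at changed less, by -0.68, and the comparison was not repeated with it. With the brightest C1qb probe set the C1q chains stood lower relative to the middle of the marker list. Relative to Csf1r the difference in group means ran from -0.01 to -0.53, depending on the Csf1r probe set. The part of macrophage number in the C1q result was not tested.

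**Figure D2:**
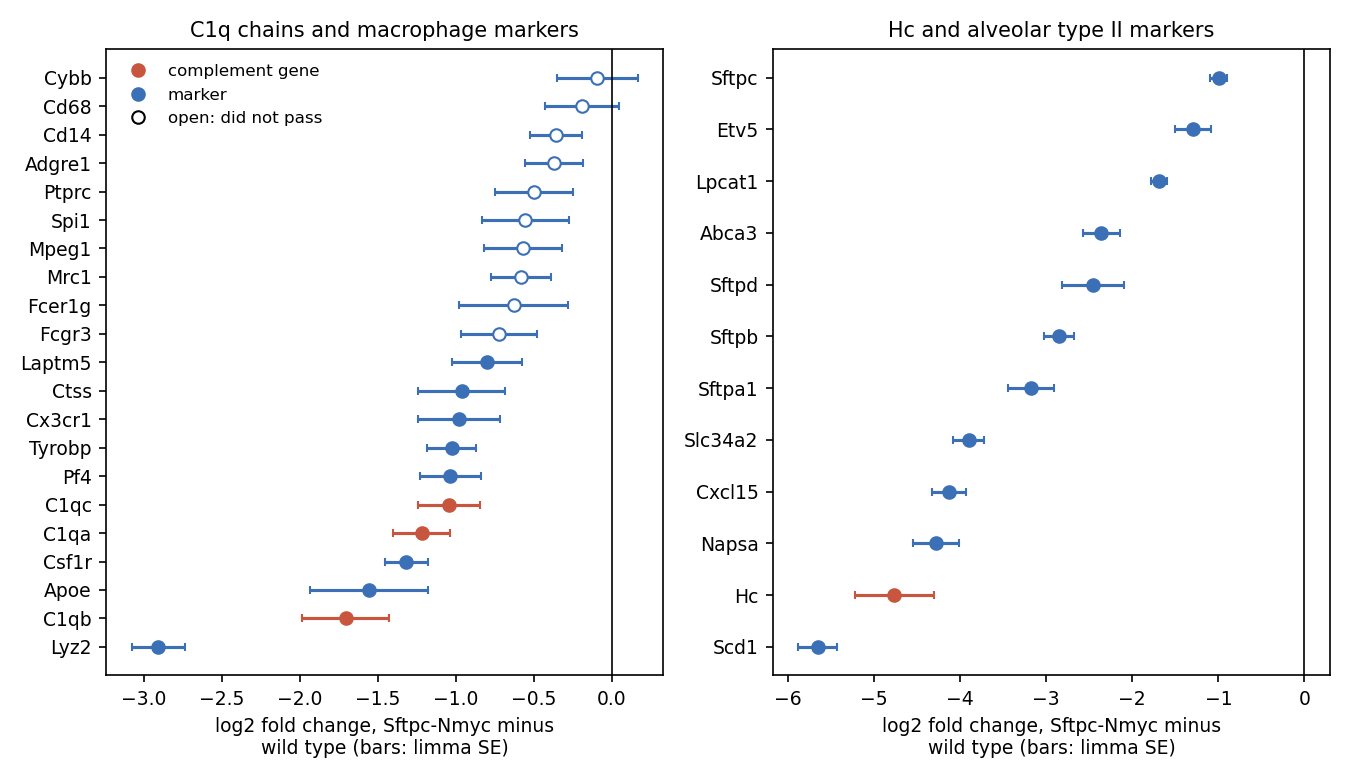
Log2 fold change, Sftpc-Nmyc minus wild type, with bars of 1 limma SE, for the C1q chains among 18 tested macrophage markers (left) and Hc among 11 tested alveolar type II markers (right). Filled points passed at an adjusted p under 0.05. C1qc and C1qa lie next to Csf1r and Pf4, C1qb lies between Apoe and Lyz2, and Hc lies between Napsa and Scd1.

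C2 is the protease that, cut by the C1 complex, forms the catalytic part of the classical C3-splitting enzyme. It read 92.1 and 88.6 in wild type and 7.7 and 20.5 in the transgenic lungs. The groups were far apart, but the wild-type mean was only 1.23 times the highest control signal. At the 29.9th percentile of gene means C2 fell just short of the filter at the 30th, so the main test over genes did not include it. In the fit of single probe sets, which it entered, the log2 fold change was -2.33 ± 0.36 (limma adjusted p = 0.0039 over all probe sets), and with no filter on dim genes the limma adjusted p was 0.015. C2 entered the fit of single probe sets only through its wild-type signals. Its adjusted p there describes the gap and adds no support for it.

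Cfb, factor B of the alternative pathway, is the gene next to C2 on chromosome 17. It read 9.1 and 7.5 in wild type and 10.2 and 3 in the transgenic lungs, far under the control guide on all 4 arrays. The groups overlapped, and the difference of means was -0.15 on the log2 scale. It was left out of the test as too dim, and with no filter on dim genes it did not pass (limma adjusted p = 0.86). These signals give no measurable level of Cfb in either group.

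Hc encodes C5, which is split into the attractant C5a and the fragment C5b that starts the membrane attack complex. It read 847.8 and 822.9 in wild type and 10.9 and 51.2 in the transgenic lungs. The wild-type arrays were within a few percent of each other, while both transgenic arrays lay below the control guide and differed from each other several times over. Hc fell by 4.76 ± 0.46 (limma SE; 95% interval -5.82 to -3.71; limma adjusted p = 0.00054), 27.2-fold on this scale. The wild-type mean was 11.4 times the highest control signal, which is the firmer statement where the transgenic level is near background. The value was -5.62 without transgenic replicate 2, -3.91 without transgenic replicate 1 and -3.50 with an offset of 50. Because Hc passed the filter only through its wild-type signals, its adjusted p describes the gap and adds no support for it.

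Genes of the alveolar type II cell, the surfactant-making cell of the distal lung, were lower beside Hc. Of 12 such markers 11 were measured and tested, and 11 were called lower and 0 higher, with a median of -2.85 and a range from -5.65 for Scd1, a fatty acid desaturase, to -0.997 for Sftpc, surfactant protein C. Their summed signal was 37405.2 and 43739.5 in wild type and 10966 and 8553.9 in the transgenic lungs, with no marker at 0 or under the control guide. Sftpb, surfactant protein B, stood at -2.85, Lpcat1, which makes surfactant phospholipid, at -1.69, and Cxcl15, a lung chemokine, at -4.13. Broader lung epithelium markers did not fall together. Of 8 tested, 4 were called higher and 1 lower, beside 14.7% higher and 15.7% lower over all tested genes. Their median was 0.58, and they ran from -1.58 for Scgb1a1 to 1.48 for Epcam. How much of the fall of Hc goes with alveolar type II cells was not tested.

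Hc is also a gene at which the parental strains differ, since DBA/2J mice carry a frameshift deletion that leaves them without C5 protein. No source used here gives the alleles of these embryos, and their part in the Hc values was not tested. Hepatocyte genes, which would mark liver tissue in the sample, were close to background. Of 14 measured, 13 did not exceed the control guide on any array, among them Afp at 9.4 and 40.3 in wild type and 21.5 and 20.3 in the transgenic lungs. Alb, albumin, was the exception, at 98.4 and 104.3 against 36.4 and 57.9, and was called lower (limma adjusted p = 0.019).

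Serping1 encodes the C1 inhibitor, a serpin that blocks the proteases bound to C1q and those of the kinin system. It lay at the 95.8th percentile of gene means, with signals of 1035.7 and 1354.2 in wild type and 699.1 and 592.7 in the transgenic lungs. The groups did not overlap, and both lay far above the control guide, so unlike Hc or C1q the transcript was well measured in both. Serping1 fell by 0.91 ± 0.16 (limma adjusted p = 0.0046), or 1.88-fold, with a 95% interval from -1.28 to -0.55. Connective tissue and vessel genes were lower beside it. Of 12 fibroblast markers tested 9 were called lower and 0 higher (median -0.88, summed signal 25137.3 and 26863 against 15585.3 and 15746.6), and of 10 endothelial markers 10 were called lower (median -1.57, summed signal 7127.7 and 8305.9 against 2817.3 and 2721.5). Over all tested genes 15.7% were called lower. No marker of either list was at 0, and the part of these cell types in the Serping1 result was not tested.

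Beyond the named set, 41 of 56 other complement genes listed by role were measured and 19 passed the filter, of which 4 were called lower and 2 higher, beside 15.7% lower and 14.7% higher over all tested genes. With so few genes these shares are close to the background. The median log2 fold change of the 19 was -0.30. Many of the remaining 22 encode proteins that the liver makes, and they were too dim to test. In the terminal pathway C6, which joins C5b in the membrane attack complex, was the only tested gene, and read 186 and 162.2 in wild type against 31.5 and 16.1. C6 fell by 2.65 ± 0.31 (limma adjusted p = 0.0011), with both transgenic signals under the control guide, so that it too passed the filter only through wild type, while C8a, C8b, C8g and C9 never exceeded it. Hc and C6 thus both stood above the guide in wild type and under it in the transgenic lungs. The same held for C1qc, C2, Itgb2 and the brightest probe set of C1qb.

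The upstream recognition genes outside C1q did not pass. C1ra, a protease of the C1 complex, read 72 and 99.5 against 56.1 and 45.3, or -0.63 on the log2 scale (limma adjusted p = 0.11). Of the lectin pathway 3 genes were tested and 0 passed, with fold changes from -0.30 for Colec12 to 0.23 for Fcna. All 3 had overlapping groups.

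Among regulators, 1 gene was called lower and 1 higher, and neither call in the main test over genes was stable. Clu, clusterin, which binds the terminal complex in solution, read 196.2 and 233.2 against 140.4 and 151.5 and fell by 0.53 ± 0.17 (limma adjusted p = 0.046). That call ended without any 1 of the 4 arrays (limma adjusted p = 0.065 to 0.20), with no filter on dim genes (0.077) and without the variance trend (0.066), and in the fit of single probe sets this probe set did not pass (0.055). Of its other probe sets, one stood at -1.26, one at -1.02 and one, which did not pass, at -0.90, so the brightest one showed the smallest change. Averaged over its 4 probe sets, Clu stood at -0.93 (limma adjusted p = 0.0097). Susd4, a membrane inhibitor of complement activation, read 72.8 and 83.7 against 124.7 and 119.9 and rose by 0.65 ± 0.19 (limma adjusted p = 0.035), a call that also ended without any 1 of the 4 arrays (limma adjusted p = 0.060 to 0.13) and with no filter (0.079). The membrane regulators Cd55, Cd59a, Cd46 and Cr1l did not pass, at 0.03, -0.37, 0.25 and -0.43.

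Receptor genes included the largest rise. C1qbp, which is named for binding the globular heads of C1q but encodes a protein found mainly in the mitochondrial matrix, read 931.2 and 727.6 in wild type and 2656.5 and 2493.4 in the transgenic lungs. It rose by 1.58 ± 0.14 (limma adjusted p = 0.00046), and a further C1qbp probe set rose by 2.00 ± 0.15. Cd93, once described as a C1q receptor and now known as an endothelial and myeloid membrane protein, read 1484.9 and 1284.7 against 632.5 and 589.1 and fell by 1.20 ± 0.13 (limma adjusted p = 0.00082). Itgb2, the shared beta chain of the C3 fragment receptors of leukocytes, read 84.3 and 110.2 against 40.5 and 45 and fell by 1.02 ± 0.24 (limma adjusted p = 0.015). Leaving out wild-type replicate 2 (-0.83, limma adjusted p = 0.096) or transgenic replicate 1 (-0.99, limma adjusted p = 0.052) ended the Itgb2 call. C3ar1, the C3a receptor, did not pass at -0.65 (limma adjusted p = 0.12), and C5ar1, the receptor for the C5a fragment of Hc, never exceeded 29.2.

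**Figure D3:**
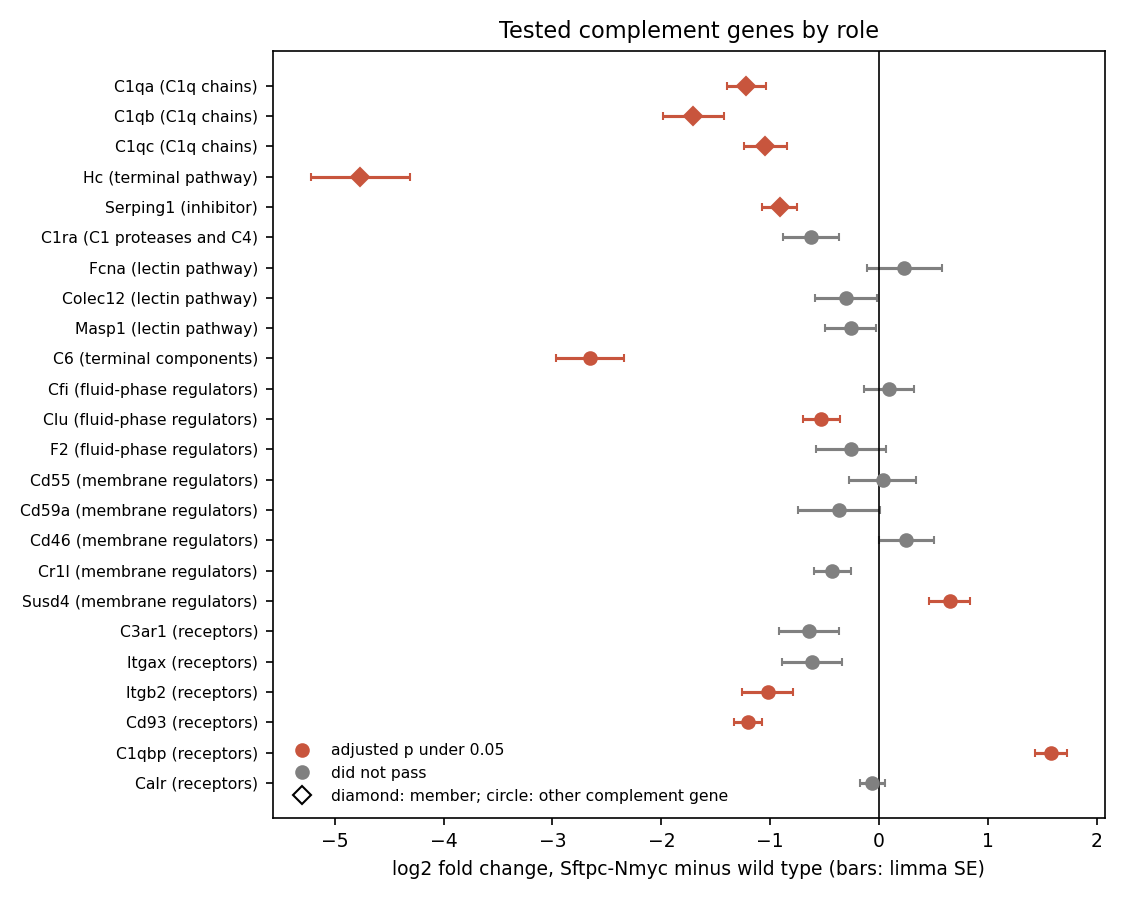
Log2 fold change, Sftpc-Nmyc minus wild type, with bars of 1 limma SE, for the 5 tested genes of the named set (diamonds) and the 19 other tested complement genes (circles), ordered by role. Coloured points passed at an adjusted p under 0.05, with Hc at -4.76 at one end and C1qbp at 1.58 at the other.

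The profiles most like those of the complement genes were found by Euclidean distance between log2 values centred per gene over the 4 arrays. The nearest to the mean of the C1q chains, among 8672 genes, were Krt80, Gnb4, Tubb2a, 1110008P14Rik and Serpinb6b, at distances from 0.06 to 0.09. None of these is on the macrophage list. Nearest to Hc were Xist, Aqp5, Lyz1, Cxcl15 and Slc34a2, at distances from 1.19 to 1.81. Of these, Cxcl15 and Slc34a2 are on the alveolar type II list, and Aqp5 encodes a water channel of alveolar epithelium. With 4 arrays in 2 groups such a distance reflects both the size of the group difference and the spread within groups. Xist, at -4.56, was close to Hc in fold change. The 2 transgenic signals of Hc, 10.9 and 51.2, were far apart and under the control guide.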

How the data were processed

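Biotin-labelled total RNA of whole lung, purified with an RNeasy kit per the labels' protocols, was hybridised to Affymetrix arrays. The deposited table gives linear intensities, 1 for each probe set on each array. The software behind them is not given in the sources used here, but with 2% trimmed at either end the mean was 149.99 on every array, as a common scaling would give. Of 22690 probe sets, 64 were controls, 20380 had 1 symbol, 691 several and 1555 none in the platform annotation.

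Signals under 1 were set to 1, 5 was added, log2 was taken, and arrays were quantile normalized over non-control probe sets. The probe set with the highest mean stood for each gene, and 8675 genes at or above the 30th percentile of mean level were tested. The test was that of limma 3.58.1 (R 4.3.3; lmFit, then eBayes with variance following the mean), with group as the only term and Benjamini-Hochberg adjustment over all genes (threshold 0.05, two-sided). A further fit kept 14266 single probe sets. Errors are limma standard errors. The number of arrays limits the precision. Code was tested on simulated data. The genes, lists and tests were chosen with earlier results of these data known. All genes of the set were named, with other tested complement genes that passed or had a fold change beyond 1 on the log2 scale, the brightest markers, and the 5 nearest profiles. Other genes were named after their values were seen.

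The alternatives tried were no quantile normalization, other offsets, other filters, the mean of all probe sets, no variance trend, a replicate block and leaving out each array.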

Additional observations from a re-analysis of the deposited data

How the results depend on the processing

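Among the 7 complement genes of the set with a probe set, the number called lower was 4 to 6 over 12 alternatives and the number called higher was 0 in each. It was 4 to 5 without 1 array, the lost call being C1qc, and 6 where C2 was tested (offset 50, no filter on dim genes, or the mean of all probe sets). The number of other complement genes called higher, 2 with all arrays, was 1 with no filter on dim genes, 1 with the replicate block and 1 to 1 without 1 array. The number called lower, 4 with all arrays, was 2 with the filter at the 50th percentile and 2 to 3 without 1 array. Over all genes the number called lower was 669 to 1037 and the number called higher 727 to 880 without 1 array, lowest without wild-type replicate 2 for both. Of 60 values of the set under an alternative, 1 lost its call and 59 kept their direction and side of the threshold, and no call reversed. The replicate number as a block left 1134 genes lower and 1084 higher, and 5 of the set lower, and ended the calls of Clu and Susd4 (limma adjusted p = 0.063 and 0.058). The labels do not say that same-numbered arrays are paired. Their deviations correlated at -0.04, which with 2 arrays per group cannot exclude a shared litter or day. Many transgenic complement signals lay at or under the brightest control, which limits how far their folds can be read.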
